A study of Mus musculus with 20 samples.

Results

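RNA editing was described at the sites of 4 transcripts, Exoc8, Sdf4, Mgat4a and Ankrd28, whose products act in or near the secretory pathway. The genes were chosen by what they encode and with their editing levels in these libraries known, and a site was included when at least 50 reads covered it in both libraries of at least 1 group. Levels and tests of these sites therefore describe a chosen set and are no independent evidence for it. This kept 142 of the 150 sites listed for these genes: 43 of 43 in Exoc8, 22 of 24 in Sdf4, 38 of 41 in Mgat4a and 39 of 42 in Ankrd28. The same coverage rule over all genes kept 9065 of 48425 sites. All 142 sites were annotated in a 3′ UTR. The 8 sites left out were annotated as intronic and had no read in any library. Just inside the rule were sites of Exoc8 with 94 reads in the shallower library of their best covered group.

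The cells were mouse embryonic fibroblasts (MEFs), connective tissue cells grown from mouse embryos, of 5 lines. These were ADAR1_WT (called wild type here), ADAR2_NULL, STAT2_NULL, P150_KO (by its label a knockout of p150, a form of ADAR1) and ADAR1_NULL. The label does not state whether the P150_KO line keeps other forms of ADAR1. Untreated and interferon-treated cells of every line gave 2 libraries each, so that 20 libraries formed 10 groups. The labels do not say how the alleles were made, which interferon was used or at what dose and for how long, nor whether the paired libraries of a group derive from independent cultures. All p-values therefore set a difference only against the spread among these libraries, estimated over all groups in the main fit. That spread may be technical. Each genotype was represented by 1 line, so genotype and line cannot be told apart, and no label names the wild-type line as a matched control of the others. The design text speaks of 557 amplified loci and of a further line, which was not analysed here.

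Adenosine-to-inosine editing is carried out on double-stranded RNA by ADAR enzymes, and inosine is read as guanosine in cDNA. ADAR1 is made as a constitutive, mainly nuclear p110 form and as an interferon-inducible, largely cytoplasmic p150 form, while ADAR2 is encoded by Adarb1. STAT2 carries the signal of type I interferon to the genes it induces. Inverted repeats in 3′ UTRs can fold into the double-stranded structures that ADAR enzymes edit.

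Exoc8 encodes the Exo84 subunit of the exocyst, which tethers secretory vesicles to the plasma membrane. Sdf4 encodes Cab45, a calcium-binding protein of the Golgi lumen that takes part in sorting secreted cargo. Mgat4a encodes a Golgi N-acetylglucosaminyltransferase that adds branches to N-glycans. Ankrd28 encodes an ankyrin-repeat regulatory subunit of protein phosphatase 6, a phosphatase that acts on coat proteins of vesicles leaving the endoplasmic reticulum among other substrates. The assay measured the edited share of each transcript and not its amount, so the shared pathway is background knowledge and could not be checked in these data.

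The editing level of a site is the number of edited reads divided by all reads covering it, given in percent. The deposited coverage per library, summed over sites, ranged from 4389326 to 5559674 reads, and 5652 to 8814 sites per library had at least 50 reads. The fewest such sites were in the first untreated ADAR1-null and the first treated P150_KO library. Loss of the targeted genes could not be checked, since editing levels carry no expression value. Reads were PCR products without molecular identifiers, so counting limits and tests on reads do not count independent molecules.

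The sites lay in short runs, here split where neighbouring sites were more than 100 bases apart, with positions as the deposited files give them on mm9. Exoc8, on the minus strand of chromosome 8, had 20 sites from 127417621 to 127417791 (run 1) and 23 from 127417944 to 127418110 (run 2). Sdf4, on the plus strand of chromosome 4, had 22 sites from 155384766 to 155384906. Mgat4a, on the minus strand of chromosome 1, had 26 sites from 37499036 to 37499245 (run 1) and 12 from 37499887 to 37500040 (run 2). Ankrd28, on the minus strand of chromosome 14, had 1 site at 32513669, 17 from 32513794 to 32513851 (run 2) and 21 from 32514546 to 32514693 (run 3). Sites of a run were covered by largely the same amplicon reads and are not independent of each other. Depth still differed within runs. In the treated ADAR1-null libraries Exoc8 127418022 had 852 and 819 reads and 127418029 had 849 and 819, against 427 and 409 at 127418008. Ankrd28 32514560 had 952 and 1082 reads there, against 475 and 535 at 32514546. Counts were tested as deposited, and the cause of the higher depth was not tested.

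Coverage fell short of 50 reads in parts of 3 of the genes. Run 1 of Exoc8 reached 50 reads at every site in both libraries of 4 groups only, and had 8 to 47 reads per library at position 127417779 in the wild type and 0 in the ADAR2-null line. Sdf4 had no reads in the second untreated ADAR1-null library. Run 2 of Mgat4a had 1 or 2 reads at its leading sites in the first treated P150_KO library and 28 to 56 in the first untreated ADAR1-null library. In Ankrd28 all sites reached 50 reads in every library, but run 2 was shallower in the treated wild type and ADAR2-null line. Position 32513812 had 201 and 176 and 225 and 206 reads there, against 570 and 420 and 346 and 378 untreated. The nearby site 32513669 had 440 and 419 and 410 and 407 reads in the same treated libraries. Part of Exoc8 run 2 was shallower in these libraries too. Position 127418084 had 347 and 229 and 241 and 286 reads there, against 296 and 393 and 358 and 351 untreated. Position 127418008 of the same run had 412 and 317 and 284 and 372 treated, and 292 and 395 and 361 and 350 untreated. The cause of these lower depths was not tested. Levels are given only for libraries with at least 50 reads at the site.

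The first comparison asked how interferon changed editing of these transcripts in the wild type. All 4 transcripts were edited at higher mean levels after interferon, and no treated library overlapped an untreated one. The share of all genes that separated in this way is not given, so this is a description of the chosen genes. The mean level over the 23 sites of Exoc8 run 2 was 2.73 and 2.49% in the untreated libraries and 14.0 and 14.3% in the treated ones, a 5.42-fold difference in means. Over the 22 sites of Sdf4 it was 0.272 and 0.203% against 4.37 and 4.75%, a 19.2-fold difference that starts from a level close to the treated ADAR1-null mean of 0.25% ± 0.082 (SD, n = 2). Over the 26 sites of Mgat4a run 1 it was 0.622 and 0.759% against 3.28 and 4.40%, a 5.56-fold difference. Over the 39 sites of Ankrd28 it was 1.89 and 2.06% against 7.37 and 6.32%, and this fold was the smallest of the 4. These means describe chosen members and carry no test. They average in many sites near 0, and most such differences changed in size when only sites with a mean level of 1% entered.

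**Figure D1:**
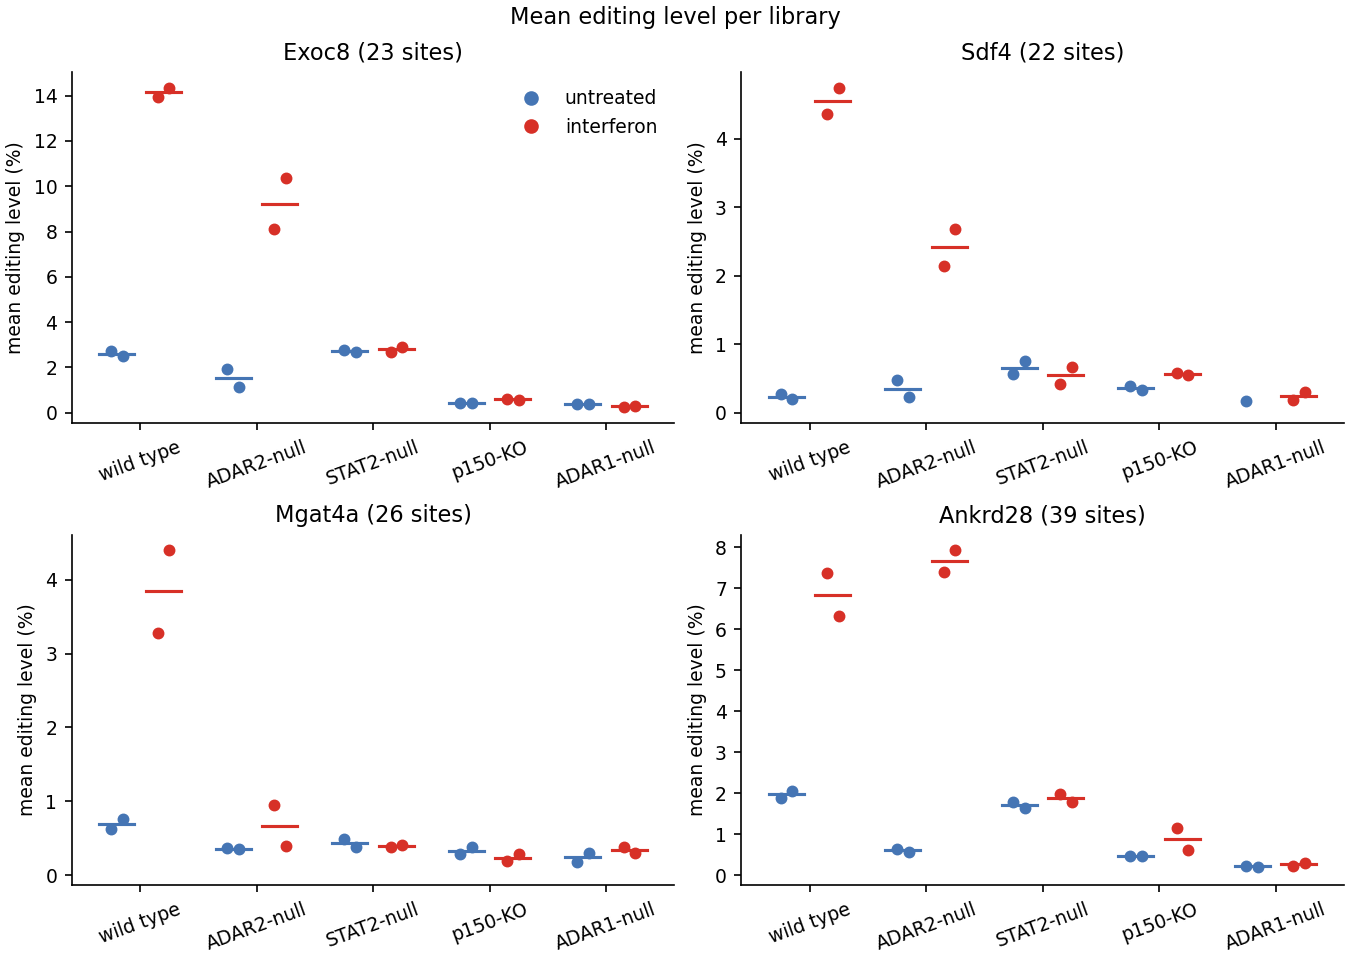
Mean editing level (percent, linear axis) of each transcript in every library, by line (x axis) and treatment (blue untreated, red interferon); points are libraries and horizontal lines the mean of 2. Sdf4 has a single point for the untreated ADAR1-null line. The treated wild-type and ADAR2-null libraries stand above the other groups for Exoc8, Sdf4 and Ankrd28, while for Mgat4a only the treated wild-type libraries do.

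Site by site, 27 of the 49 member sites tested rose and none fell by edgeR's quasi-likelihood test at an adjusted p under 0.05. Over all genes 40.4% of 1223 tested sites rose, so the members' count is read against that share. The median difference was 5.95 percentage points over the member sites and 5.27 points over all tested sites. Calls fell on 5 of 11 tested sites in Exoc8, 3 of 7 in Sdf4, 8 of 10 in Mgat4a and 11 of 21 in Ankrd28. Sites were tested when their mean level over the contrasted libraries was at least 1%, so a low untreated site entered only through its treated level, and these counts are a description. The count was 13 without the first and 15 without the second untreated wild-type library. It was 4 when the spread was estimated from the contrasted groups alone, where the count over all sites was 109 instead of 502. Counts over all sites with a library left out are not given, here or below. Changes of member counts in such omissions therefore cannot be told from a general change over all sites.

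In Exoc8 the 7 sites of at least 10% in the treated wild type lay in 2 stretches of run 2. Site 127418022 had levels of 13.6 and 10.4% in the untreated and 59.2 and 72.6% in the treated wild type, the largest rise of the gene (53.8 points, SE 6.90, edgeR adjusted p = 0.016). Site 127418029, 7 bases away, was at 1.36 and 1.14% and rose to 50.7 and 54.5% (51.4 points, SE 1.88, edgeR adjusted p = 0.000534). Only the first of these neighbours lay above every ADAR1-null library without interferon, while both were above 50% with it. The call at 127418022 ended without the second untreated wild-type library, and that at 127418029 held in each omission. The other called sites of the gene were 127418058, 127418080 and 127418083, which rose from means of 1.19, 0.338 and 0.465% to 39.0, 25.7 and 18.8%.

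Exoc8 also held the highest mean level of all member sites in the untreated and in the treated wild type, at 127418084, although single treated libraries were higher at 127418022 and at Sdf4 155384775. Its levels were 26.0 and 27.2% untreated and 68.3 and 67.7% treated in the wild type. The groups were 41.4 points apart (SE 0.680), and this difference missed the threshold (edgeR adjusted p = 0.0611). The next site in the same stretch, 127418090, went from 13.9 and 12.2% to 40.6 and 40.2% and also missed it (edgeR adjusted p = 0.132). The test compares log odds of editing, with a spread estimated over all groups.

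The same site, 127418084, was measured in the remaining lines. It was at 17.6 and 12.3% untreated and 37.3 and 48.6% treated in the ADAR2-null line, and at 27.1 and 30.0% untreated and 31.7 and 25.3% treated in the STAT2-null line. In the P150_KO line it was at 1.99 and 0.829% untreated and 0.350 and 5.29% treated, and in the ADAR1-null line at 1.44 and 0.769%, then 0.235 and 0% treated. The STAT2-null libraries thus overlapped the untreated wild type in both treatments, and neither ADAR1-deficient line had a library above 5.29%.

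Run 1 of Exoc8 could be followed at 50 reads only in the STAT2-null line, the untreated P150_KO and the treated ADAR1-null groups. A single site, 127417779, carried most of it, with 24.7 and 17.6% in the untreated and 29.8 and 27.7% in the treated STAT2-null libraries. The same site was at 1.09 and 0% in the untreated P150_KO and at 0 and 0% in the treated ADAR1-null libraries, where 0 edited reads allow a level of up to 1.60%. The treated and untreated STAT2-null libraries did not overlap there, but the difference of 7.55 points (SE 3.70) did not pass (edgeR adjusted p = 0.999). This site was chosen after its values were seen.

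Sdf4 was dominated by 1 site. Position 155384775 went from 0.498 and 0.743% to 72.4 and 62.5% in the wild type, a rise of 66.8 points (SE 4.93, edgeR adjusted p = 0.000198), and kept its call whichever library was left out. It held 67.3% of the summed level of all 22 Sdf4 sites in the treated wild type, where the leading site of Exoc8 run 2 held 20.9%, that of Mgat4a 26.5% and that of Ankrd28 14.2%. A second Sdf4 site, 155384792, rose from 0 and 0.743% to 12.6 and 12% (edgeR adjusted p = 0.0167), a call that ended without the first untreated wild-type library. Of the 22 sites, 14 stayed below 1% in the treated wild type.

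In the ADAR2-null line the leading Sdf4 site was at 2.37 and 1.04% untreated and 38.8 and 46.6% treated, again a called rise (41.0 points, SE 3.99, edgeR adjusted p = 0.0013). In the STAT2-null line it was at 3.51 and 8.0% untreated and 4.97 and 5.21% treated, so that the 2 groups overlapped. Both untreated STAT2-null libraries lay above both untreated wild-type ones at this site, by 5.13 points (SE 2.25), which did not pass (edgeR adjusted p = 0.23). The P150_KO libraries had 0 and 1.71% untreated and 0.408 and 0% treated, and the 3 ADAR1-null libraries with reads had 0.546, 0.469 and 0.450%.

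Mgat4a had its edited sites in both runs. In run 2, position 37500003 went from 0.766 and 0.183% to 39.5 and 60.8% in the wild type (49.7 points, SE 10.7, edgeR adjusted p = 0.00259). Its neighbour 37500000 went from 0.313 and 0% to 20.5 and 27.1% (23.7 points, SE 3.34, edgeR adjusted p = 0.00269). Both calls held whichever library was left out. In run 1, position 37499238 was at 5.62 and 4.69% untreated and 31.2 and 42.1% treated (31.5 points, SE 5.48, edgeR adjusted p = 0.0427), a call that ended without the second treated or either untreated wild-type library.

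The 2 treated wild-type libraries differed widely at several Mgat4a sites. Position 37499237, the highest untreated Mgat4a site at 3.78 and 7.10%, was at 13.5 and 38.9% after interferon, and its difference of 20.8 points (SE 12.8) did not pass (edgeR adjusted p = 0.128). Position 37499243 was called although 1 treated library had 26.3% and the other 0.783%, with untreated levels of 0.375 and 0.134%. The 8 called sites of this gene therefore include sites whose treated libraries lay farther apart than the lower of them lay from the untreated ones, and at 1 of them, 37499229, the groups overlapped.

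In the ADAR2-null line Mgat4a reached only low levels after interferon. Position 37500003 was at 0 and 0.580% untreated and 7.60 and 7.92% treated, a difference of 7.47 points (SE 0.331, edgeR adjusted p = 0.0338) whose call ended whichever library was left out. Position 37499238 was at 0.170 and 0.322% untreated and 7.95 and 0.196% treated, and 37500000 at 0 and 0.196% untreated and 0 and 0.216% treated. The mean over run 1 was 0.369 and 0.348% untreated and 0.944 and 0.386% treated, where the treated mean was 17.3% of the treated wild-type mean. The first treated ADAR2-null library was the one with higher values at both 37499238 and the neighbouring 37499237 (8.49 against 0.198%).

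In the STAT2-null line the mean over Mgat4a run 1 was 0.482 and 0.374% untreated and 0.385 and 0.407% treated, so the groups overlapped. Site 37500000 was an exception in direction, at 0.747 and 0.196% untreated and 6.13 and 4.58% treated (4.88 points), the only member site in this line with an unadjusted p under 0.05, and it did not pass adjustment (edgeR adjusted p = 0.999). Both untreated STAT2-null libraries had 0.178 and 0.179% at 37499237, under the 3.78 and 7.10% of the untreated wild type, a difference that did not pass either (edgeR adjusted p = 0.134). In the P150_KO line 37499238 was at 0.152 and 0.300% untreated and 0 and 0% treated, where 0 edited reads allow a level of up to 0.410%.

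Ankrd28 had the most edited sites, with all but 1 of those of at least 1% in runs 2 and 3. Of its 39 sites, 25 reached at least 1% in the treated wild type, against 12 of 23 in Exoc8 run 2, 8 of 22 in Sdf4 and 13 of 38 in Mgat4a. Position 32513815 rose from 4.04 and 5.24% to 36.5 and 37.7% (32.5 points, SE 0.855, edgeR adjusted p = 0.0165), a call that ended without either untreated library. Position 32513834 rose from 1.76 and 0.239% to 26.0 and 15.4% (19.7 points, SE 5.34, edgeR adjusted p = 0.0044) and kept its call in each omission. The treated libraries of both sites lay clear of the untreated ones.

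Other Ankrd28 sites were already edited without interferon. The highest treated wild-type site, 32513812, was at 10.2 and 9.52% untreated and 37.8 and 38.1% treated, a separation of 28.1 points (SE 0.350) that missed the threshold (edgeR adjusted p = 0.0582). Position 32513848, the highest untreated site, was at 18.1 and 19% untreated and 30.8 and 18.2% treated, and these groups overlapped (edgeR adjusted p = 0.709). Position 32514637 went the other way, from 5.29 and 3.83% to 0.767 and 1.72%, a difference of -3.32 points (SE 0.869) that did not pass (edgeR adjusted p = 0.202). It was the only Ankrd28 site of at least 1% at which both treated wild-type libraries lay below both untreated ones.

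**Figure D2:**
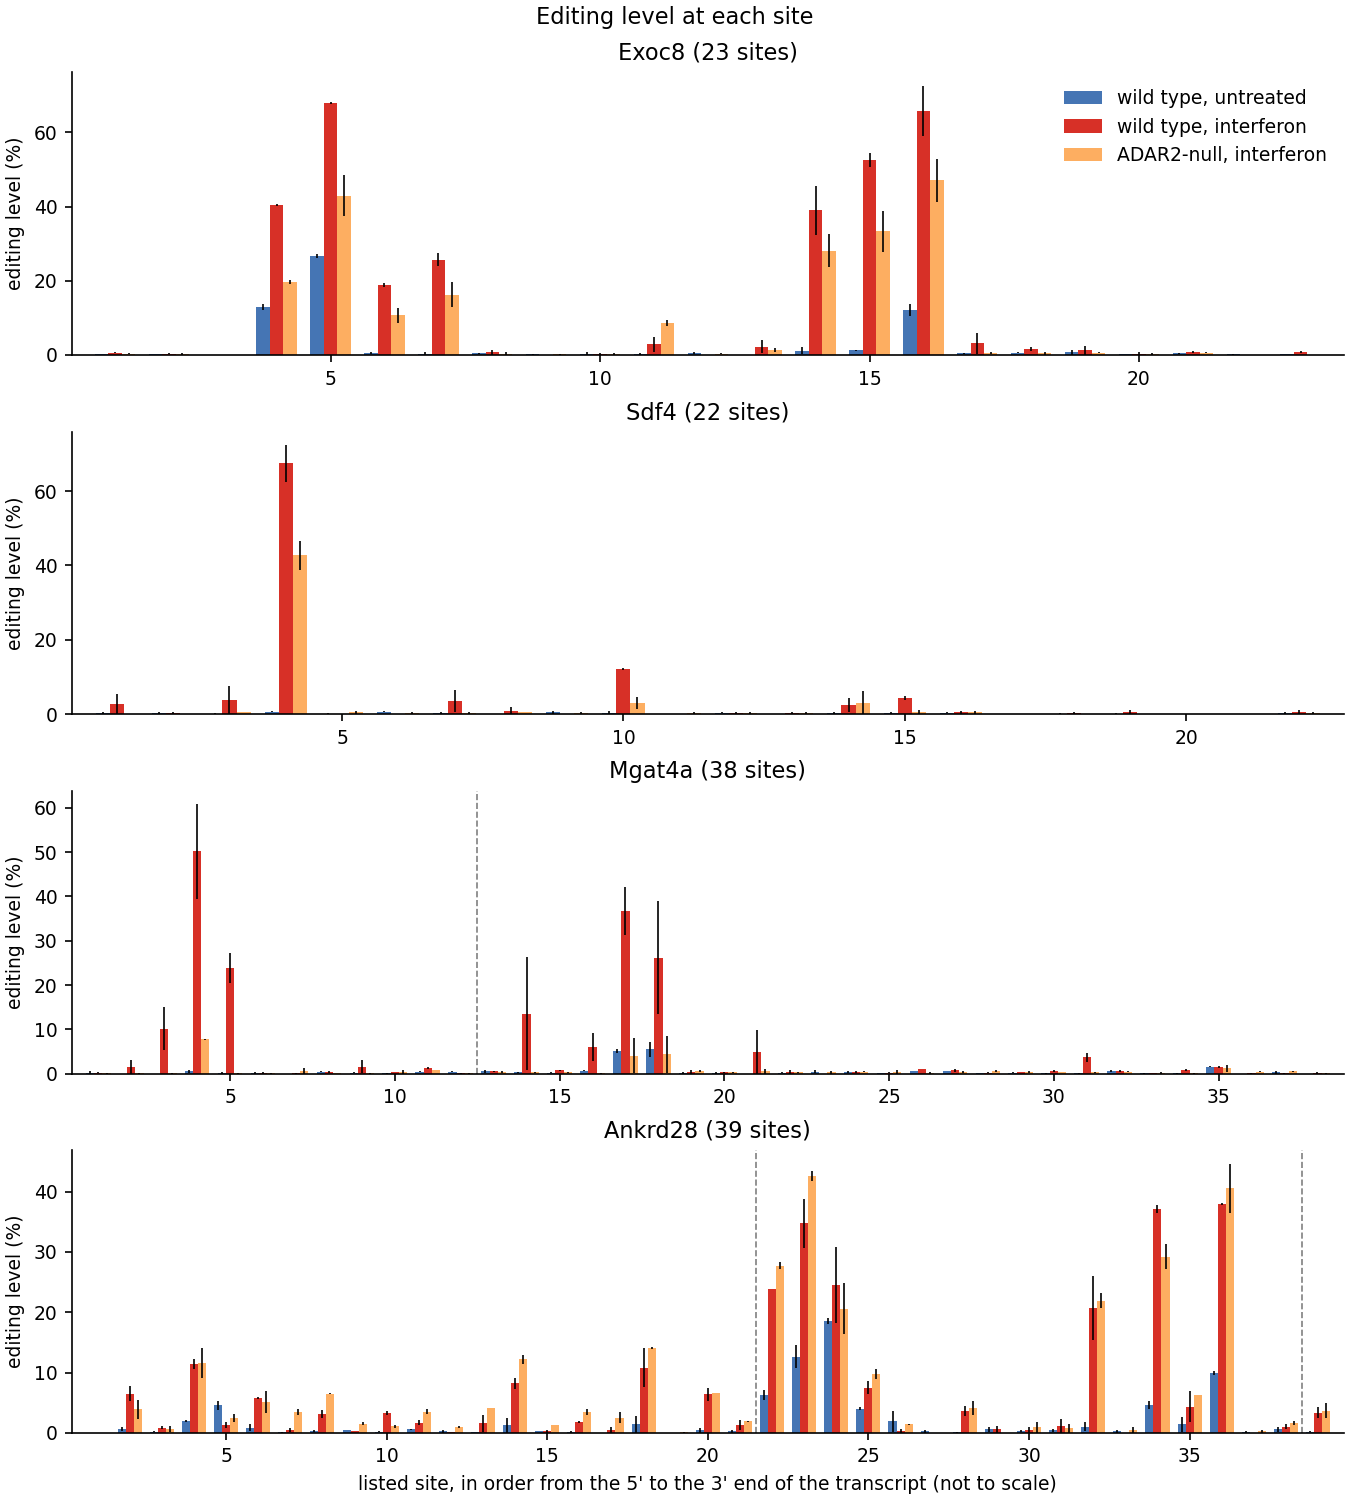
Mean editing level (percent) of each site covered in the wild type, in order from the 5′ to the 3′ end of the transcript (site number, not to scale), in the untreated wild type (blue), treated wild type (red) and treated ADAR2-null line (orange); black lines join the 2 libraries and dashed lines separate runs. Sdf4 shows 1 leading site, Exoc8 2 stretches, and the orange bars follow the red ones in Ankrd28 but are low throughout Mgat4a.

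The ADAR2-null line was compared with the wild type to ask how much of this editing was present without ADAR2. Interferon raised 28 of 39 tested member sites in this line and lowered none by edgeR's quasi-likelihood test, beside 52.2% of 1145 sites rising over all genes. The calls were 20 of 24 sites in Ankrd28, 6 of 8 in Exoc8, 1 of 3 in Sdf4 and 1 of 4 in Mgat4a. Medians were 7.47 points over member sites and 4.78 over all sites. The count was 15 without the second untreated ADAR2-null library.

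Ankrd28 held the most of these calls. Its greatest rise was at 32513849, which went from 2.89 and 3.17% to 41.8 and 43.5% in the ADAR2-null line (39.6 points, SE 0.861, edgeR adjusted p = 0.00151), where the wild type went from 14.6 and 10.7% to 38.8 and 30.7%. Position 32513812 went from 3.47 and 0.529% to 36.4 and 44.7% (38.6 points, SE 4.36, edgeR adjusted p = 0.000874). Position 32513848, which did not separate by treatment in the wild type, went from 1.73 and 1.32% to 24.9 and 16.3% here (edgeR adjusted p = 0.00576). Untreated levels at these sites lay below those of the wild type in every library, while treated levels lay above or overlapped them.

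Exoc8 rose in the ADAR2-null line as well, at 127418022 from 4.03 and 3.99% to 41.3 and 52.8% and at 127418029 from 1.25 and 0.285% to 27.9 and 38.9%. Both kept their calls in each omission. Position 127418065 was called in this line (from 1.40 and 0.285% to 9.54 and 7.69%, edgeR adjusted p = 0.0259), where the treated wild type had 0.865 and 4.80%. It was the only Exoc8 site of at least 1% at which both treated ADAR2-null libraries lay above both treated wild-type ones, and it was picked out after its values were seen.

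Compared without interferon, 2 of 19 tested member sites were lower in the ADAR2-null line than in the wild type and none was higher by edgeR's test, beside 12.9% of 588 sites lower over all genes. Both were in Ankrd28. Position 32513848 was 17.0 points lower (SE 0.530, edgeR adjusted p = 0.0198). Position 32514637 had no edited read in either ADAR2-null library, which allows a level of up to 0.276%, against 5.29 and 3.83% in the wild type (edgeR adjusted p = 0.0181). The count was 0 without either untreated ADAR2-null library, 1 without the second untreated wild-type library and 0 with the spread of the 2 groups alone, so this pair rests on every ADAR2-null library.

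After interferon the ADAR2-null means lay mostly below the wild type in Exoc8, Sdf4 and Mgat4a and mostly above it in Ankrd28. Among sites of at least 1% in either group, the ADAR2-null mean was lower at 11 of 12 sites in Exoc8, 7 of 8 in Sdf4 and 13 of 13 in Mgat4a, and higher at 24 of 30 in Ankrd28. Over all genes it was lower at 66.5% and higher at 33.5% of 1685 such sites. With the sites under 1% included, it was lower at 18 of 23 sites in Exoc8, 13 of 22 in Sdf4, 25 of 38 in Mgat4a and 8 of 39 in Ankrd28. Both libraries lay below both wild-type ones at 7, 3 and 9 sites of Exoc8, Sdf4 and Mgat4a, while in Ankrd28 both lay above at 14 sites and below at 2. Over all genes both libraries lay below at 30.6% and above at 16.6% of the sites of at least 1%. The gene means followed: 65.3% of the wild-type mean in Exoc8, 53.1% in Sdf4, 17.3% in Mgat4a, and in Ankrd28 7.39 and 7.92% against 7.37 and 6.32% in the wild type. The Ankrd28 groups did not overlap, but their nearest libraries were almost equal.

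**Figure D3:**
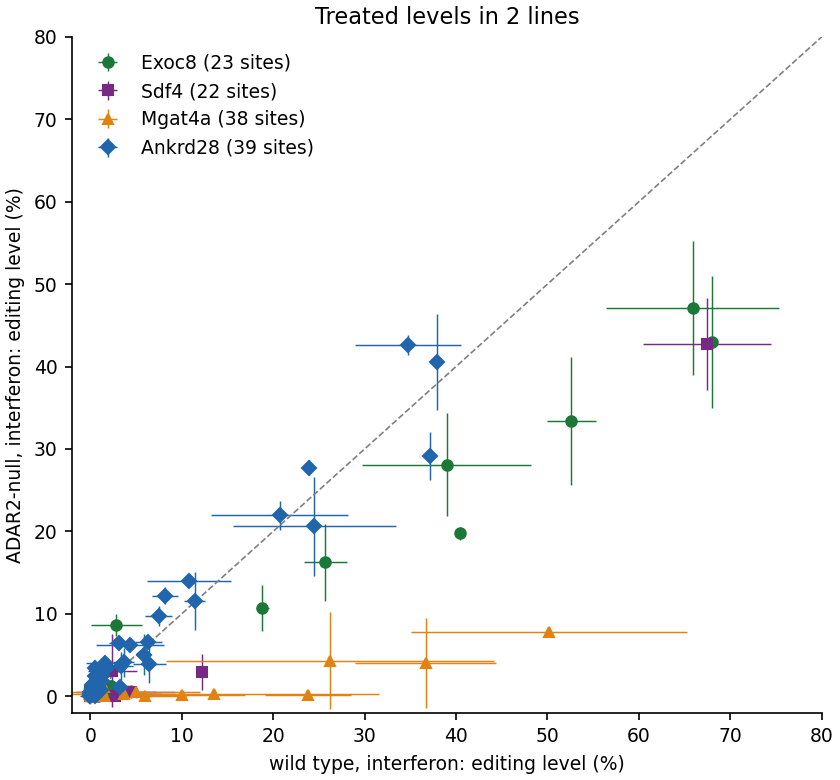
Mean editing level (percent) of each member site in the treated wild type (x axis) and the treated ADAR2-null line (y axis), coloured by transcript; error bars are the SD of 2 libraries and the dashed line marks equal levels. Above 10% in the wild type, Ankrd28 sites lie around the line, Exoc8 and Sdf4 sites below it, and Mgat4a sites near the bottom, with its leading site at 50.2% against 7.76%.

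Few of these differences passed a test. By edgeR's quasi-likelihood test, 2 of 54 member sites were lower in the treated ADAR2-null line, beside 1.56% of 1348 sites over all genes, and none was higher. Both were in Mgat4a: 37500000, at 0 and 0.216% against 20.5 and 27.1% (a difference of -23.7 points, SE 3.34, edgeR adjusted p = 0.0174), and 37499239, at 0.169 and 0% against 2.74 and 9.14% (edgeR adjusted p = 0.0477). Both calls ended without either treated ADAR2-null library, and the count was 5 without the first treated wild-type library. It was 0 with the spread of the 2 groups alone and 4 by limma. With the replicate number as a block it was 1.

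At the leading sites the treated difference was large and did not pass: -42.4 points (SE 10.7) at Mgat4a 37500003 (edgeR adjusted p = 0.281), -24.7 (SE 6.31) at Sdf4 155384775 (edgeR adjusted p = 0.585) and -25.0 (SE 5.64) at Exoc8 127418084 (edgeR adjusted p = 0.571). The test of the difference between the interferon responses of the 2 lines called none of 48 member sites, beside 0.175% of 1146 sites over all genes. Of these, 6 had an unadjusted p under 0.05, and limma called 0. The lowest edgeR adjusted p among members was 0.158, at Ankrd28 32514637. A different response of any of these transcripts in the ADAR2-null line was thus not shown at this number of libraries.

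In the STAT2-null line interferon called none of 27 tested member sites by edgeR's test, and the share over all 658 tested sites was 0 as well. A single member site had an unadjusted p under 0.05, and limma called 0. The gene means were 2.76 and 2.68% untreated and 2.70 and 2.89% treated in Exoc8, 0.561 and 0.758% and then 0.427 and 0.664% in Sdf4, and 1.77 and 1.64% and then 1.98 and 1.78% in Ankrd28. The treated and untreated groups overlapped in Exoc8, Sdf4 and Mgat4a. In Ankrd28 the lower treated library was level with the higher untreated one when rounded to 0.1 points.

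Without interferon the STAT2-null line did not separate from the wild type by test, with 0 of 22 member sites called by edgeR beside 2.95% of 643 sites over all genes. Of the members, 2 had an unadjusted p under 0.05, and limma called 0. Between untreated STAT2-null and wild-type levels over sites, Pearson's r was 0.975 and Spearman's rho 0.643 in Exoc8 (23 sites), and 0.896 and 0.657 in Ankrd28 (39 sites). They were 0.408 and 0.256 in Sdf4 (22 sites) and 0.212 and 0.263 in Mgat4a (38 sites). These are descriptions over sites that share amplicons and reads, and most sites of the last 2 genes were under 1% without interferon.

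After interferon 22 of 46 tested member sites were lower in the STAT2-null than in the wild-type line by edgeR's test, beside 39.8% of 1217 sites over all genes, and none was higher. They were 6 of 10 sites in Exoc8, 2 of 7 in Sdf4, 6 of 10 in Mgat4a and 8 of 19 in Ankrd28. The largest was Sdf4 155384775, a difference of -62.3 points (SE 4.93, edgeR adjusted p = 0.00186), which held in each omission. The count was 8 without either treated STAT2-null library and 13 with the spread of the 2 groups alone.

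The difference of the 2 lines' interferon responses passed at 5 of 41 tested member sites, beside 13.7% of 1026 sites over all genes with a smaller rise, so the members' share was near the background. The sites were Exoc8 127418029, 127418058 and 127418080, Sdf4 155384775 and Ankrd28 32513834. At Sdf4 155384775 the STAT2-null minus wild-type response was -67.5 points (SE 5.42, edgeR adjusted p = 0.00588), and this was the call that held in every omission. Omission of the first treated STAT2-null library left 1 call, as did that of the second untreated one, and omission of the first untreated one left 3. It was 2 with the spread of the 4 groups alone.

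**Figure D4:**
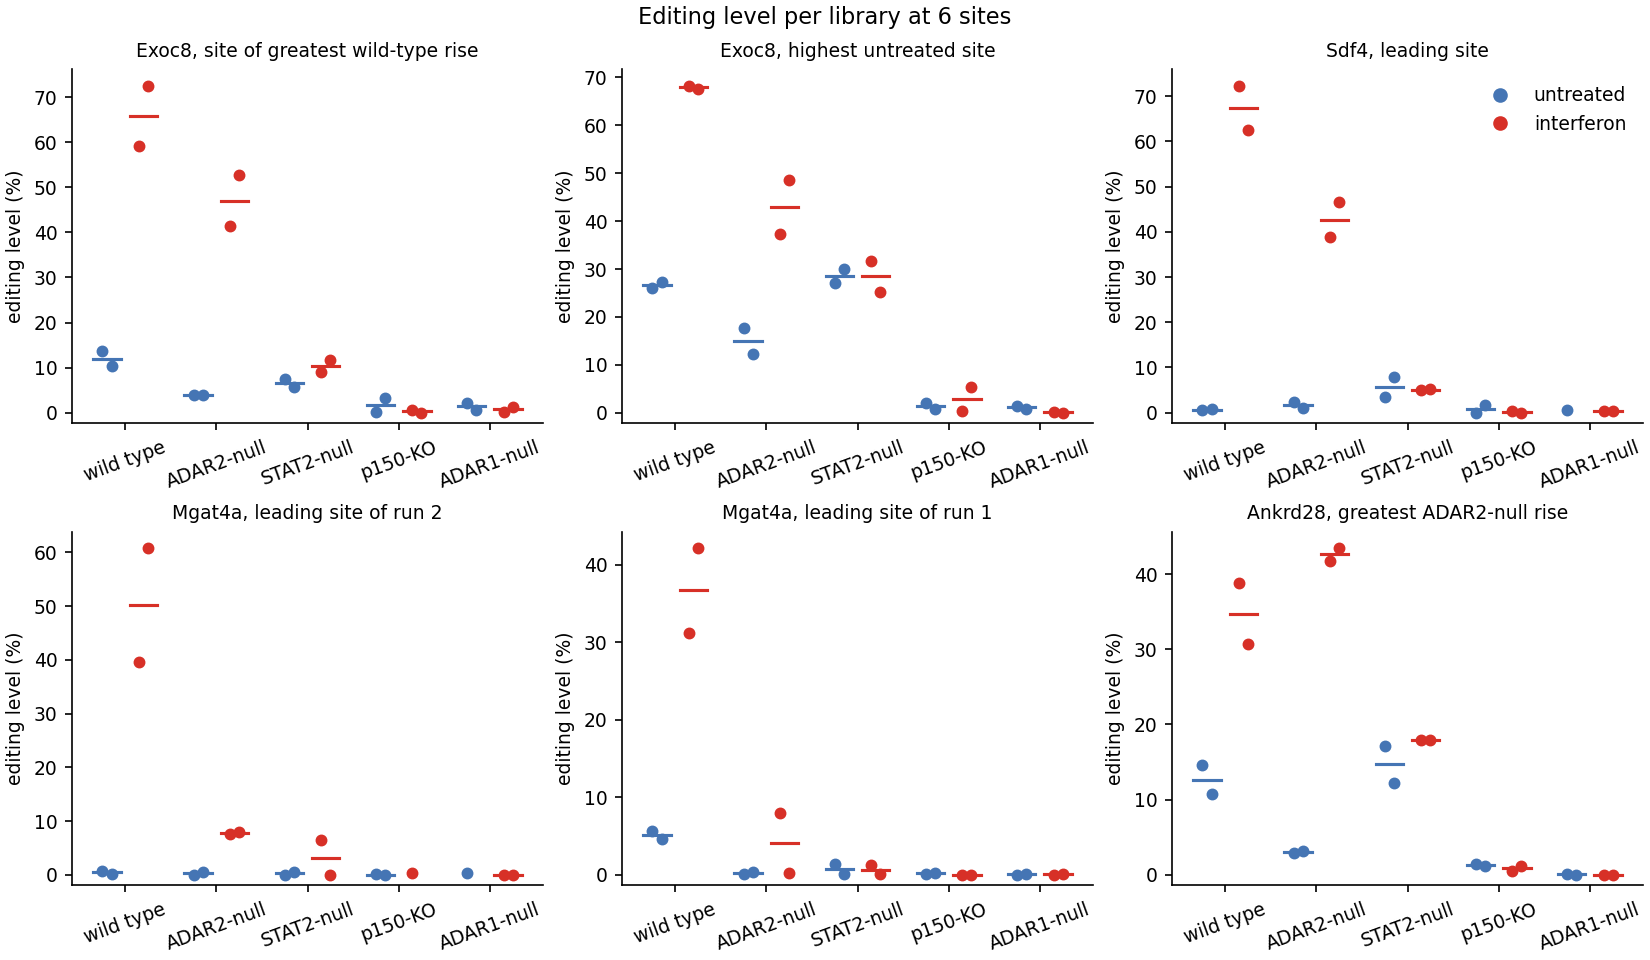
Editing level (percent, linear axis) at 6 sites in every library with at least 50 reads, by line and treatment (blue untreated, red interferon); lines mark the mean of 2 libraries. The panels show Exoc8 127418022 and 127418084, Sdf4 155384775, Mgat4a 37500003 and 37499238, and Ankrd28 32513849, at which the untreated ADAR2-null libraries are at 2.89 and 3.17% and the treated ones at 41.8 and 43.5%.

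The P150_KO and ADAR1-null lines were compared with the wild type to ask how much editing was left without p150 or without any ADAR1. Without interferon 8 of 15 tested member sites were lower in the P150_KO line by edgeR's test, beside 32.5% of 517 sites over all genes, and none was higher. They were 3 of 3 sites in Exoc8, 2 of 3 in Mgat4a and 3 of 9 in Ankrd28; no Sdf4 site reached a mean of 1%. Exoc8 127418084 was at 1.99 and 0.829% against 26.0 and 27.2% (a difference of -25.2 points, SE 0.840, edgeR adjusted p = 0.00507). Ankrd28 32513848 kept 4.14 and 4.26% in the untreated P150_KO line, above the 2.02 and 1.46% of the ADAR1-null libraries.

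These untreated calls were sensitive to single libraries. The count was 5 without the first and 4 without the second untreated wild-type library, 3 without the first and 1 without the second untreated P150_KO library, and 0 with the spread of the 2 groups alone.

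After interferon 29 of 47 member sites were lower in the P150_KO line by edgeR's test, beside 63.9% of 1039 sites over all genes, a share close to that background. They were 7 of 11 sites in Exoc8, 2 of 9 in Sdf4, 4 of 7 in Mgat4a and 16 of 20 in Ankrd28. Sdf4 155384775 differed by -67.2 points (SE 4.94, edgeR adjusted p = 1.7e-05) and Ankrd28 32513849, at 0.519 and 1.22%, by -33.9 points (SE 4.08, edgeR adjusted p = 9.56e-05). The count was 18 with the spread of the 2 groups alone.

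Interferon itself called none of 13 tested member sites in the P150_KO line by edgeR's test, beside 1.65% of 243 sites over all genes, all of them lower. Of the members 2 had an unadjusted p under 0.05, and limma called 0. The treated libraries differed from each other at several sites. The first was higher at Ankrd28 32513815 (8.49 against 0.917%), 32513812 (9.01 against 3.66%) and 32513848 (11.1 against 1.52%) and at Exoc8 127418090 (7.72 against 1.06%). Without the second treated library 3 member sites were called higher. The first treated P150_KO library was also among those with the fewest covered sites; whether the 2 facts are linked was not tested.

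The interferon response was smaller in the P150_KO line than in the wild type at 5 of 37 tested member sites by edgeR's test, beside 17.2% of 839 sites over all genes. These were Exoc8 127418022 and 127418029, Sdf4 155384775 and Ankrd28 32514605 and 32514661. Leaving out single libraries gave 1 to 4 calls. The count was 2 without the second treated or first untreated wild-type library, the first treated or the first untreated P150_KO library, 3 without the second untreated wild-type library and 1 without the second untreated P150_KO library. It was 0 with the spread of the 4 groups alone and 10 by limma.

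The ADAR1-null line gives the levels measured without ADAR1; editing by other enzymes and assay noise were not separated there. Of the member sites covered, 4 of 142 in the treated and 4 of 94 in the untreated libraries had a mean of at least 1%, and the highest means were 1.56 and 1.74%, both at Ankrd28 32513848. The gene means ranged from 0.175% (Sdf4, 1 untreated library) to 0.392% (Exoc8, untreated). The highest untreated sites were 127418022 in Exoc8 (2.16 and 0.638%), 37499105 in Mgat4a (0.308 and 0.713%) and 32513848 in Ankrd28 (2.02 and 1.46%). Read against the highest ADAR1-null mean of its own gene, 51 of 122 sites stood above that level in the treated wild type and 15 of 122 in the untreated wild type, 39 and 11 in the ADAR2-null line, and 23 and 22 of 142 in the STAT2-null line. In the P150_KO line it was 12 of 110 treated and 10 of 142 untreated, of which 6 and 4 were in Sdf4. The level to exceed was lowest in Sdf4, at 0.683%, where it came from the treated ADAR1-null libraries alone. It was 1.42% in Exoc8, 1.14% in Mgat4a and 1.74% in Ankrd28. Counts out of 142 include sites of Exoc8 run 1, which were not counted in the wild type or the ADAR2-null line. The counts therefore cannot be compared directly between lines, and the share over all genes is not given.

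Without interferon 13 of 14 tested member sites were lower in the ADAR1-null line than in the wild type by edgeR's test, beside 49.0% of 386 sites over all genes. All 8 tested sites of Ankrd28, both of Mgat4a and 3 of 4 in Exoc8 passed. Ankrd28 32513849 had 0.169 and 0% against 14.6 and 10.7% (edgeR adjusted p = 0.000132), and Exoc8 127418084 differed by -25.5 points (SE 0.692, edgeR adjusted p = 0.00112). The count was 5 without the first and 8 without the second untreated ADAR1-null library, and 8 with the spread of the 2 groups alone. After interferon 36 of 48 were lower, beside 69.5% of 1159 sites, with Exoc8 127418084 at -67.9 points (SE 0.329, edgeR adjusted p = 5.48e-06).

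Interferon called none of the 2 member sites that could be tested within the ADAR1-null line by edgeR's test, and none of 114 over all genes (0%). No member had an unadjusted p under 0.05, and limma called 0. The response was smaller than in the wild type at 2 of 32 sites, beside 12.2% of 754 sites over all genes: Exoc8 127418029 with a difference of -52.1 points (SE 1.96, edgeR adjusted p = 0.00334) and 127418084 with -42.4 points (SE 0.766, edgeR adjusted p = 0.0482). The count was 1 without either treated ADAR1-null library, without the second untreated one or without the first untreated wild-type library. It was 0 without the first untreated ADAR1-null library and 4 without the second untreated wild-type library. It was 1 with the spread of the 4 groups alone or with a replicate block, and 13 by limma. All comparisons with the wild type share its libraries and are not independent of each other.

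Ordered by level, the treated wild type and the treated ADAR2-null line came first in Exoc8, Sdf4 and Ankrd28, with no overlap down to the next group. In Exoc8 both STAT2-null groups and the untreated wild type followed and overlapped, then the untreated ADAR2-null line at 1.92 and 1.12%, and then all P150_KO and ADAR1-null groups below 0.65%. In Ankrd28 the untreated wild type overlapped the treated STAT2-null group, and the untreated ADAR2-null line, at 0.634 and 0.569%, overlapped the treated P150_KO group (1.15 and 0.598%). In Mgat4a the untreated wild type, the treated ADAR2-null and the untreated STAT2-null groups overlapped in turn. In Sdf4 the groups below the leading pair lay between 0.175 and 0.758% in all libraries.

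Adjacent adenosines were often edited unequally. Among the 33 pairs of listed sites on consecutive bases, 21 had a level of at least 1% at either site in the treated wild type, and the 3′ site was the higher in 14 and the 5′ site in 7. In Ankrd28, 32513812 was at 37.9% beside 4.34% at the 5′ neighbour 32513813, and in Exoc8, 127418058 was at 39.0% beside 2.25% at 127418059. The order was the opposite at Exoc8 127418084 (68.0%) and its 3′ neighbour 127418083 (18.8%). In the treated ADAR2-null line the 3′ site was the higher in 11 of 17 such pairs. This is a description, with sites of a pair sharing reads.

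The site levels of the treated ADAR2-null line were also set against those of the treated wild type within each transcript. Over sites, Pearson's r was 0.987 and Spearman's rho 0.902 in Exoc8 (23 sites), 0.975 and 0.924 in Ankrd28 (39 sites), 0.989 and 0.629 in Sdf4 (22 sites), and 0.875 and 0.0983 in Mgat4a (38 sites). Between the treated and untreated wild type they were 0.768 and 0.678 in Exoc8, 0.760 and 0.689 in Ankrd28, 0.463 and 0.332 in Sdf4, and 0.563 and 0.279 in Mgat4a. These are descriptions, in which Pearson's r follows the few highly edited sites and the ranks include many sites under 1%.

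Across the 10 group means, the gene with the profile most like Exoc8 was Atl3, which encodes an atlastin of the endoplasmic reticulum (Pearson's r 0.998 over 74 candidate genes, whose median was 0.942), followed by Rpa1 and Nup155 (both 0.989). For Sdf4 these were Mtap6 (0.995), Mier1 (0.993) and Dnajc18 (0.992), beside a median of 0.913. For Mgat4a they were Cep97 (0.995), Lsm11 (0.990) and 4933404O12Rik (0.987), beside a median of 0.783. For Ankrd28 they were Ccdc157 (0.995), Dnajc1 (0.993) and Psma3 (0.992), beside a median of 0.912. Among the 4 genes the closest were Exoc8 and Sdf4 (0.975), and the farthest Mgat4a and Ankrd28 (0.671). Correlations over 10 group means are governed by the treated wild type and ADAR2-null groups, and are given as descriptions.

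Other genes of the same pathways were scarcely represented at this coverage. Of the 9 exocyst genes, 5 calcium binders of the CREC family, 15 N-glycan processing genes and 7 genes of protein phosphatase 6, only Exoc8, Sdf4, Mgat4a and Ankrd28 themselves had a site with 50 reads in both libraries of a group. Of 24 genes of the COPII and COPI vesicle coats 1 had such a site, and none had a tested one. Of 32 Golgi tethers and SNAREs (proteins that dock and fuse vesicles), Cog3 and Golga2 did. Their 6 tested sites gave no call for interferon in the wild type by edgeR, while 1 of 4 rose in the ADAR2-null line. Over all sites 40.4 and 52.2% rose in these lines. Without interferon 1 of 5 was lower in the ADAR1-null, 2 of 2 in the P150_KO, 0 of 6 in the STAT2-null and 2 of 3 in the ADAR2-null line than in the wild type. The shares over all sites were 49.0, 32.5, 2.95 (either direction) and 12.9%. Both P150_KO sites were in Cog3. After interferon 4 of 5 were lower in the ADAR1-null, 3 of 6 in the P150_KO, 1 of 6 in the STAT2-null and 2 of 5 in the ADAR2-null line, where the shares over all sites were 69.5, 63.9, 39.8 and 1.56%. The greatest wild-type difference was in the 3′ UTR of Golga2, at 32162270 on chromosome 2, from 0.929% ± 0.258 to 11% ± 0.785 (SD, n = 2; edgeR adjusted p = 0.0583).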

How the data were processed

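Multiplex PCR on MEF cDNA gave the amplicons, and pooled products were indexed in 15 PCR cycles, per the labels' protocols. Reads were processed with BWA and SAMtools on mm9, per the submitters' processing notes; the sources used here give no versions or quality filters. For every library the authors deposited a table of 48425 sites, each with counts of covering and edited reads and the editing level as a fraction. That fraction equalled edited over covering reads to within 0.0005. Whether positions count from 0 or 1 is not stated.

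Edited and unedited counts were tested with edgeR 4.0.16 (R 4.3.3), quasi-likelihood, two-sided, with a coefficient per group and per library, over all 20 libraries. Sites needed 50 reads in every contrasted library and a mean level of 1%. Benjamini-Hochberg adjustment ran over all sites tested in a comparison; calls are adjusted p under 0.05. Differences in points are between unweighted group means, with SEs from the 2 libraries of each group. The scripts were tested on simulated data. Gene means cover sites with 50 reads in all 20 libraries (Sdf4: 19, an exception added after the data were seen, like the means of Exoc8 run 1).

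Named sites were, per gene and comparison, the 2 greatest called rises and falls without overlap, plus the highest sites of the wild-type groups and of the untreated ADAR1-null group; sites marked as picked after their values were seen, and examples that illustrate a count, fall outside this rule. Similar genes had at least 2 sites and a mean level of 1%. The members, lists and tests were chosen with earlier results of these data known. Alternatives were a minimum of 100 reads, no minimum level, the spread of the contrasted groups alone, limma 3.58.1, a replicate block and omission of each library.

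Deviations of same-numbered libraries from their group means correlated at -0.161 to 0.145 over the 45 pairs of groups (median 0.016). These weak correlations gave no sign that the numbers pair libraries, but cannot exclude it. Within groups, replicates differed by more than sampling noise (chi-square per site 3.20 to 20.2). The treated (20.2) and untreated (11.5) wild type differed most, and the other groups lay between 3.20 and 9.31. The main fit shared its spread over all groups, so it may understate the spread in comparisons with the wild type.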

Additional observations from a re-analysis of the deposited data

Results flagged for a closer look

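Interferon responses that differed between the wild type and another line, by edgeR's quasi-likelihood test of the difference itself, were found at 12 combinations of site and line; the outlier check does not apply to groups of 2. Values are the line's change after interferon minus that of the wild type. In the STAT2-null line they were -51.1 points at Exoc8 127418029, -38.1 at 127418058, -24.9 at 127418080, -67.5 at Sdf4 155384775 and -20.6 at Ankrd28 32513834. In the P150_KO line they were -55.3 at Exoc8 127418022, -51.3 at 127418029, -67.5 at Sdf4 155384775, -3.28 at Ankrd28 32514605 and -9.93 at 32514661. In the ADAR1-null line they were -52.1 at Exoc8 127418029 and -42.4 at 127418084. The calls were 5 of 41, 5 of 37 and 2 of 32 tested member sites in the STAT2-null, P150_KO and ADAR1-null lines. Over all genes 13.7, 17.2 and 12.2% of tested sites had a smaller rise, so the members did not exceed that share. Exoc8 127418029 stood in all 3 lists. No Mgat4a site was among them, with only 9, 6 and 7 tested. The wild-type libraries enter all of these values.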

How the results depend on the processing

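Counts of member sites called changed when the spread was estimated from the contrasted groups alone: 4 instead of 27 for interferon in the wild type, 0 instead of 2 and 0 instead of 8 for the untreated ADAR2-null and P150_KO lines against the wild type, 8 instead of 13 for the untreated ADAR1-null line, 0 instead of 2, 13 instead of 22 and 18 instead of 29 for the treated ADAR2-null, STAT2-null and P150_KO lines, and 2, 0 and 1 instead of 5, 5 and 2 for the differences of responses of the STAT2-null, P150_KO and ADAR1-null lines. Over all sites these fits called 109 of 1223 instead of 502, 0 instead of 80, 66 instead of 171, 113 instead of 190, 0 instead of 27, 320 instead of 498, 460 instead of 670, 74 instead of 142, 41 instead of 144 and 23 instead of 93. Without the minimum level the counts were 1, 4 and 4 for the untreated ADAR2-null, the untreated P150_KO and the treated ADAR2-null line, and 2 and 1 for the response differences of the P150_KO and ADAR1-null lines. That setting tested 116, 117, 115, 109 and 92 member sites in this order, instead of 19, 15, 54, 37 and 32. Over all genes it tested 6052, 5847, 6018, 4975 and 4914 sites. Over all sites it gave 66 instead of 80 for the untreated ADAR2-null line and 113 instead of 171 for the untreated P150_KO line. It gave 58 instead of 27 for the treated ADAR2-null line, and 86 instead of 144 and 63 instead of 93 for these response differences. limma gave 4, 4, 10 and 13 for the untreated and treated ADAR2-null line and these 2 response differences. Over all sites limma gave 96 instead of 80 for the untreated and 48 instead of 27 for the treated ADAR2-null line. For the response differences it gave 289 instead of 144 and 268 instead of 93. Leaving out 1 library gave 13 to 24 and 15 to 23 calls for interferon in the wild type and ADAR2-null line and 0 to 3 in the P150_KO line. It gave 0 to 2, 1 to 5 and 5 to 13 for the untreated and 0 to 5, 8 to 21, 22 to 31 and 30 to 38 for the treated comparisons, in the order ADAR2-null, STAT2-null (treated only), P150_KO and ADAR1-null. For the response differences it gave 0 to 0, 1 to 6, 1 to 4 and 0 to 4. Counts over all sites in these omissions are not given. The cause of these changes was not tested. With the replicate number as a block, 1 instead of 2 sites was called for the treated ADAR2-null line and 1 instead of 2 for the ADAR1-null response difference. Of 278 tests of named sites, 5 lost their call with this block and 273 kept their side. With the spread of the contrasted groups alone 43 of these tests weakened. Without the minimum level 18 weakened and 1 strengthened, and by limma 2 weakened and 19 strengthened. In the ADAR2-null line the numbers of treated and untreated libraries correlated at -0.146, and with them crossed, a setting chosen after seeing the data, 28 member sites were called. The treated minus untreated gene means also depended on the sites averaged. When only sites with a mean level of 1% entered, 16 of these differences changed in size, 1 reversed and 3 held. The reversal was Sdf4 in the P150_KO line, from 0.206 points higher after interferon to -0.107. With edited reads over all reads of a gene, 8 changed in size and 12 held, and with 100 reads all 20 held. The number of libraries limits all tests, and coverage limits levels below about 1%.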
